A study of Mus musculus with 12 samples.

Results

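AP-1 and other immediate early factors were followed in intestinal stem cells (ISCs) of young and old mice. The members were chosen by name: the AP-1 subunits Fos, Fosb, Jun, Junb, Jund and Atf3, the zinc finger factors Egr1, Klf4 and Klf6, and the nuclear regulator Ier2. All 10 genes were found in the count table, out of 54232 genes. The SM6 groups came from wild-type C57/Bl6 mice at 2 months (SM6 young) or 22 months (SM6 old), with cells sorted on a panel of surface proteins. For the Lgr5-GFP isolation, mice of strain and genotype Lgr5-EGFP-IRES-CreERT (so spelled in the labels, and with CreERT2 in the study's text) were used at the same ages (Lgr5-GFP young and Lgr5-GFP old). This allele places a fluorescent protein and an inducible Cre recombinase in Lgr5, a receptor gene of crypt base stem cells. The mice of the study were female and each of the 4 groups held 3 libraries, from individual animals. No group was injured or treated. Strain, genotype and isolation changed together, so they cannot be told apart in any difference between SM6 and Lgr5-GFP. The labels describe the surface protein sort for all 12 libraries, but a supplementary legend names GFP as the sorting signal in the reporter strain.

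AP-1 is a family of dimers in which a Fos protein pairs with a Jun protein and binds short DNA elements in promoters and enhancers. Immediate early genes are transcribed within minutes of a growth factor or stress signal from factors already present in the cell, chiefly through the ERK, JNK and p38 kinases, and most of their mRNAs are short-lived. Egr1 answers to the same signals, Klf4 is linked to exit from the cell cycle and goblet cell differentiation in the gut, and Jund differs from Jun and Junb in being less inducible. Dissociation of a tissue into single cells is itself a known trigger of these genes, and crypts here were dissociated with enzyme at 37 °C before sorting.

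The libraries held 970472 to 3815425 counts (median 1424340), and 13368 genes passed the filter and were tested. Levels are given in CPM, the usual scaling of counts to a common library total, here on TMM-scaled totals. At these depths, 3 counts in the shallowest library of a group correspond to 2.17 CPM in SM6 young, 2.4 CPM in SM6 old, 2.84 CPM in Lgr5-GFP young and 2.89 CPM in Lgr5-GFP old. All 12 ISC markers were tested and abundant, with Lgr5 at 298 counts or more in every SM6 library and 245 or more in every Lgr5-GFP library, whereas most markers of immune cells and stroma had few counts. Of 13 immune markers, 2 were at 0 in every library (Cd79a and Itgax) and 8 never exceeded 3 counts, and the pan-leukocyte marker Ptprc reached 6 counts in 1 library and at most 1 in the others. Lyz2, a macrophage lysozyme gene, reached 78 counts in Lgr5-GFP young replicate 1 and Gzma, a granzyme of cytotoxic lymphocytes, 31 counts in Lgr5-GFP young replicate 2. Of 10 stromal and endothelial markers, 4 were at 0 throughout (Col3a1, Pdgfra, Dcn and Kdr), and the whole list summed to at most 12 counts in a library. Transcripts of the Paneth cell defensins took 1.26% to 23.2% of the counts and were highest in SM6 old replicate 3 and Lgr5-GFP young replicate 1.

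Because the members share their control by upstream signals, the promoter bases of Fos and Jun, which were higher in Lgr5-GFP, are shown first, with those of the Fos paralogue Fosb. RefSeq windows (GRCm38.p6) were held for 8 of the 10 members, all but Egr1 and Ier2. The 250 bases before the annotated start are printed 5′ to 3′ on the gene's strand, with capitals for matches to TGACG (the core of the cAMP response element), TGACATCA (the AP-1-like element of the Jun promoter), TATAAA or CCAAT, searched on both strands. The windows lie at chr12:85473640-85473889 (Fos, plus strand), chr7:19310046-19310295 (Fosb, minus strand) and chr4:95052223-95052472 (Jun, minus strand).
Fos: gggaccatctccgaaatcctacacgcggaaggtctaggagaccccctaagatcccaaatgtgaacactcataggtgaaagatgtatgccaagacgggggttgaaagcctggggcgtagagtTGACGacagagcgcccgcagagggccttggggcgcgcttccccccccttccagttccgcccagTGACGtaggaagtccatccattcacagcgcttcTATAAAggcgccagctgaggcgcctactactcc
Fosb: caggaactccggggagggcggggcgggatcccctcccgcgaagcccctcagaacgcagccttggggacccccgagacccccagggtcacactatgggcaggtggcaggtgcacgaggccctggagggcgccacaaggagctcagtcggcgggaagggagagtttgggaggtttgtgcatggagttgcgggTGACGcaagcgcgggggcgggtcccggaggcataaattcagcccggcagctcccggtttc
Jun: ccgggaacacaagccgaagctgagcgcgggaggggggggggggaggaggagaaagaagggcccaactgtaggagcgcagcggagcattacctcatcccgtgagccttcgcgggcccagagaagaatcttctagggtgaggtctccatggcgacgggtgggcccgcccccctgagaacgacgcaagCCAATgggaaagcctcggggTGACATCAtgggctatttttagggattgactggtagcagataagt
Fos carried TGACG 129 and 66 bases before the start and TATAAA 33 bases before it. Fosb carried TGACG 60 bases before the start, and Jun carried TGACATCA 45 bases and CCAAT 65 bases before it. TGACG was found in 5 of the 8 member windows and in 17.8% of all 32851 windows, TGACATCA in 2 (Jun and Klf6) and in 2.93% of all, and CCAAT in 3 (Jun, Junb and Klf6) and in 33.8% of all. TATAAA occurred in 1 member window (Fos) and in 12.4% of all windows. The full elements TGACGTCA, TGANTCA (the classical AP-1 element), GCGTGGGCG (the EGR element) and the CArG box of serum response factor had no match in the 8 windows, against 1.55%, 6.75%, 0.536% and 1.47% of all windows. The known serum response element of Fos lies upstream of the window shown. The starts used are those of RefSeq and can differ from the GENCODE positions given below. The Jund window (chr8:70697489-70697738) does not adjoin the GENCODE start of Jund at 70698949. The Atf3 window (chr1:191183334-191183583) lies inside the GENCODE span of Atf3. These matches are letters only, and no binding was measured.

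In GENCODE vM21 (GRCm38), Fos lies at chr12:85473890-85477273 on the plus strand with up to 4 exons in a transcript, Fosb at chr7:19302696-19310051 on the minus strand with up to 5, and Jun at chr4:95049034-95052222 on the minus strand as 1 exon. Junb (chr8:84974484-84978718, minus strand) and Ier2 (chr8:84661331-84662852, minus strand) share chromosome 8 with Jund (chr8:70698949-70700616, plus strand). Atf3 is at chr1:191170296-191218039 (minus strand), Klf4 at chr4:55527143-55532466 (minus strand), Klf6 at chr13:5861482-5870394 (plus strand), and Egr1 is on chromosome 18. Counting was over exons, and the strand setting is not given in the sources used here. The last 351 bases of Junb overlap the end of Prdx2 on the other strand, a gene with 349 to 933 counts per library, so part of the Junb signal is uncertain. Prdx2 itself gave log2 fold changes between -0.05 and 0.16 over the 6 age and isolation comparisons, with no adjusted p below 0.656. Atf3 overlaps the small RNA gene Gm24748 over 108 bases, Jun overlaps the antisense gene Junos (0 to 8 counts per library) and Jund the antisense gene Gm11175 (0 counts in all).

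**Figure D1:**
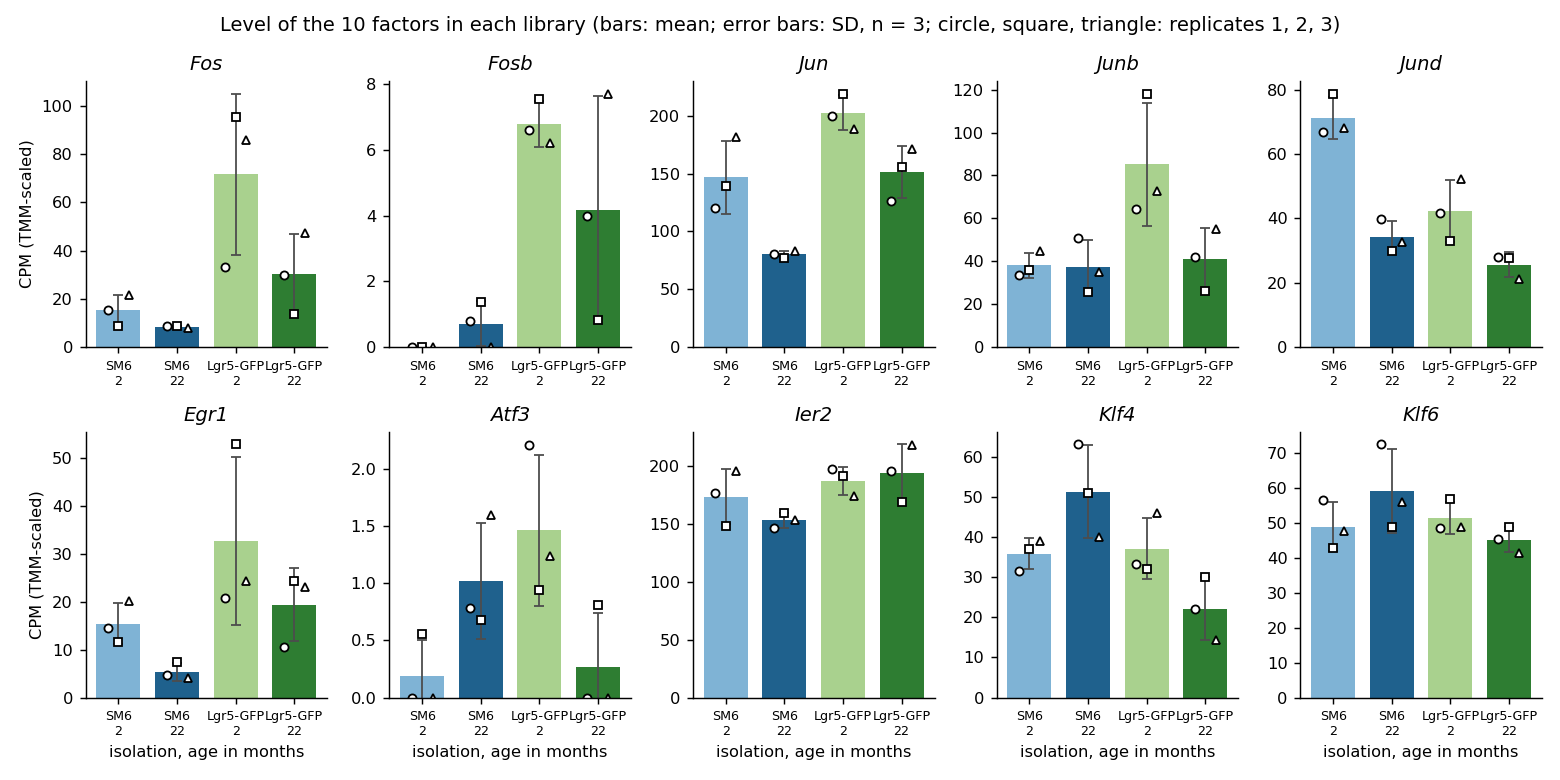
Each panel plots 1 factor in CPM on scaled library totals (linear axis from 0) for SM6 and Lgr5-GFP libraries at 2 and 22 months; bars are means, error bars SD over 3 libraries, and symbols the libraries. Fos and Egr1 stand higher in Lgr5-GFP than in SM6 of the same age, and the old libraries of Jun and Jund lie below the young ones in each isolation; Fosb and Atf3 rest on few counts.

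Fos, the partner that makes AP-1 dimers strong activators, was the member that differed most clearly between the isolations. Its level in SM6 young was 15.2, 8.87 and 21.7 CPM, in SM6 old 8.57, 8.82 and 7.99 CPM, in Lgr5-GFP young 33.4, 95.5 and 86.1 CPM, and in Lgr5-GFP old 30.0, 13.8 and 47.3 CPM. Every Lgr5-GFP library lay above every SM6 library of the same age, and the 3 SM6 old libraries were nearly equal (8.46 ± 0.43 CPM, SD, n = 3). Within Lgr5-GFP the ages overlapped, because young replicate 1 was at 33.4 CPM and old replicate 3 at 47.3 CPM. Ordered by their means, the groups ran Lgr5-GFP young (71.7 CPM), Lgr5-GFP old (30.4 CPM), SM6 young (15.2 CPM) and SM6 old (8.46 CPM), and of the neighbours in this order SM6 young and SM6 old did not overlap.

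Fosb, a Fos paralogue, had 0 counts in all 3 SM6 young libraries and 1, 2 and 0 counts in SM6 old, against 21, 8 and 15 counts in Lgr5-GFP young and 6, 1 and 8 in Lgr5-GFP old. These counts corresponded to 6.62, 7.56 and 6.21 CPM in Lgr5-GFP young and to 4.00, 0.81 and 7.72 CPM in Lgr5-GFP old. Fosb passed the filter on low counts only through 5 Lgr5-GFP libraries, so its summed counts (44 against 0 at 2 months and 15 against 3 at 22 months, Lgr5-GFP against SM6) are given as a description, with no fold or interval between the isolations. With age in Lgr5-GFP, 44 counts faced 15, a ratio of 1.66 with an exact 95% counting interval of 0.91 to 3.22, which covers counting error only.

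Jun, the main partner of Fos, was at 120.1, 139 and 181 CPM in SM6 young, 80.3, 77.4 and 83.1 CPM in SM6 old, 200.05, 219 and 189 CPM in Lgr5-GFP young, and 127, 156 and 172 CPM in Lgr5-GFP old. The old libraries were below all young libraries of the same isolation, and the Lgr5-GFP libraries were above all SM6 libraries of the same age. Lgr5-GFP old (151 CPM) and SM6 young (147 CPM) were neighbours in the order of means and overlapped. Junb, which can replace Jun and often restrains it, was at 33.4, 36.0 and 44.8 CPM in SM6 young and 50.7, 25.8 and 35.1 CPM in SM6 old. It reached 64.6, 118 and 72.9 CPM in Lgr5-GFP young and was at 42.0, 26.0 and 55.0 CPM in Lgr5-GFP old. Lgr5-GFP young thus stood apart for Junb, while the other 3 groups overlapped.

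Jund had the opposite order between the isolations. It was at 66.7, 78.7 and 67.9 CPM in SM6 young, 39.7, 29.9 and 32.8 CPM in SM6 old, 41.6, 33.1 and 52.2 CPM in Lgr5-GFP young, and 28.0, 27.6 and 21.2 CPM in Lgr5-GFP old. The old libraries were again below the young ones in both isolations, and SM6 was above Lgr5-GFP at both ages. Atf3, a stress-induced partner of Jun proteins, was barely detected: 0, 1 and 0 counts in SM6 young, 1, 1 and 2 in SM6 old, 7, 1 and 3 in Lgr5-GFP young, and 0, 1 and 0 in Lgr5-GFP old. It passed the filter through 1 library, Lgr5-GFP young replicate 1, and neither a fold change nor a separation of groups is given for it, since single counts set its values.

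Egr1, which the same kinases induce through serum response factor and Elk proteins, was at 14.6, 11.6 and 20.2 CPM in SM6 young, 4.68, 7.47 and 3.99 CPM in SM6 old, 20.8, 52.9 and 24.4 CPM in Lgr5-GFP young, and 10.7, 24.4 and 23.1 CPM in Lgr5-GFP old. SM6 old was the lowest group with no overlap with SM6 young, whereas the other neighbours in the order of means overlapped. Ier2 was at 148 to 196 CPM in SM6 young, 147 to 159 CPM in SM6 old, 174 to 197 CPM in Lgr5-GFP young and 169 to 218 CPM in Lgr5-GFP old. All neighbouring groups overlapped for Ier2.

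Klf4 was at 31.6, 37.1 and 39.0 CPM in SM6 young, 63.1, 50.9 and 39.9 CPM in SM6 old, 33.4, 32.1 and 45.9 CPM in Lgr5-GFP young, and 22.0, 30.1 and 14.5 CPM in Lgr5-GFP old. The old libraries were thus above the young ones in SM6 and below them in Lgr5-GFP. Klf6, a broadly expressed early KLF, stayed between 41.5 CPM (Lgr5-GFP old replicate 3) and 72.5 CPM (SM6 old replicate 1), and its neighbouring groups overlapped throughout. Of the 12 libraries, Lgr5-GFP young replicate 2 was the highest for 4 members (Fos, Jun, Junb and Egr1). The summed immune markers were also highest there (42.5 CPM) and ran from 20.3 to 42.5 CPM in Lgr5-GFP young, against 6.07 to 26.1 CPM in SM6 young, 11.5 to 20.8 CPM in SM6 old and 1.93 to 13.0 CPM in Lgr5-GFP old. This sum rests on few genes, since of the 13 markers 3 were tested and 8 never exceeded 3 counts. Gzma gave most of it in Lgr5-GFP young replicate 2 and Lyz2 most of it in Lgr5-GFP young replicate 1. The sort named in the labels leaves out cells with CD45, the product of Ptprc, and CD31. The part of immune cells in the members' levels was not tested.

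The comparison with age asks how the factors differ between 2 and 22 months. Averaged over the isolations, Jun, Jund and Egr1 were lower in old ISCs: 3 of the 10 members passed an adjusted p of 0.05, all lower, against 2.66% of all tested genes (355, of which 275 lower). Jund fell by 0.90 on the log2 scale (SE 0.16, adjusted p = 0.00179, edgeR quasi-likelihood test), Jun by 0.65 (SE 0.13, adjusted p = 0.00371) and Egr1 by 1.09 (SE 0.30, adjusted p = 0.0492). Jun and Jund were also the members whose old libraries lay below the young ones in both isolations, 2 of the 8 members past the filter in both, where 2.03% of all tested genes had no overlap in the same direction in both. Fos did not pass, at -1.02 (SE 0.31, adjusted p = 0.0859), nor did Junb at -0.53 (SE 0.20, adjusted p = 0.211). Ier2 (-0.06, SE 0.11), Klf4 (-0.11, SE 0.18) and Klf6 (0.05, SE 0.14) were near 0, with 95% intervals of -0.30 to 0.17, -0.49 to 0.27 and -0.25 to 0.35.

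The Egr1 call sat at the threshold. It was lost when any library was left out other than Lgr5-GFP young replicate 1 or Lgr5-GFP old replicate 2, with adjusted p between 0.0554 and 0.142 and log2 fold changes between -1.25 and -0.86, and also with library totals alone (adjusted p = 0.0526), DESeq2 size factors (0.0555) and limma voom (0.0858). The Fos difference passed without Lgr5-GFP young replicate 1 (-1.20, adjusted p = 0.0135) or without Lgr5-GFP old replicate 3 (-1.23, adjusted p = 0.0354), by DESeq2 (adjusted p = 0.044), by the likelihood ratio test of edgeR (0.0234), with adjustment for the defensin share (0.0389) and with no filter (0.00035). Without both libraries of the highest defensin share, Fos passed (-1.18, adjusted p = 0.0200) and Egr1 did not (-1.13, adjusted p = 0.0533), and 3 members were again called.

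Within SM6, Jund and Jun fell with age and no other member passed. The fall was 1.06 for Jund (SE 0.22, adjusted p = 0.00703) and 0.87 for Jun (SE 0.18, adjusted p = 0.00801), which are 2.09-fold and 1.83-fold lower levels. The 2 calls among 10 members stood against 2.42% of all tested genes. Egr1 gave the largest fitted difference of the members outside Fosb and Atf3, -1.48 (SE 0.47, 95% interval -2.44 to -0.51), but did not pass (adjusted p = 0.108), although it did with library totals alone (0.0467), no filter (0.0204) or the likelihood ratio test of edgeR (0.0457), and Fos was at -0.81 (SE 0.49, adjusted p = 0.533). Klf4 was at 0.52 (SE 0.25, adjusted p = 0.380). Of the 8 members that passed the filter in both isolations (all but Fosb and Atf3), young and old SM6 libraries did not overlap for 5, lower in old for Fos, Jun, Jund and Egr1 and higher for Klf4, where 17.5% of all tested genes showed no overlap in either direction. The Jun call was lost without SM6 young replicate 3 (-0.69, adjusted p = 0.0753), and the Jund call without SM6 young replicate 2 (-0.98, adjusted p = 0.0583) or SM6 old replicate 2 (-0.97, adjusted p = 0.0541).

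Within Lgr5-GFP no member passed (0 of 10, against 0.471% of all tested genes), although 5 members had an unadjusted p under 0.05 by the edgeR quasi-likelihood test. DESeq2 and limma voom also called 0, with 5 and 6 members under an unadjusted 0.05, and the likelihood ratio test of edgeR called Junb (adjusted p = 0.0327). Fos was at -1.22 (SE 0.37, 95% interval -1.99 to -0.46, adjusted p = 0.183), Junb at -1.03 (SE 0.27, adjusted p = 0.103), Klf4 at -0.74 (SE 0.27, adjusted p = 0.3) and Jund at -0.73 (SE 0.23, adjusted p = 0.212). Jun was at -0.42 (SE 0.17, adjusted p = 0.411) and Egr1 at -0.70 (SE 0.37, adjusted p = 0.559). Old and young libraries did not overlap for 4 of the 8 members past the filter in both isolations, all lower in old (Jun, Junb, Jund and Klf4), where 14.6% of all tested genes showed no overlap in either direction. Fos passed without Lgr5-GFP young replicate 1 (-1.59, adjusted p = 0.0442) and without both libraries of the highest defensin share (-1.59, adjusted p = 0.0206), and with no filter both Fos (0.000694) and Junb (0.00134) passed.

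**Figure D2:**
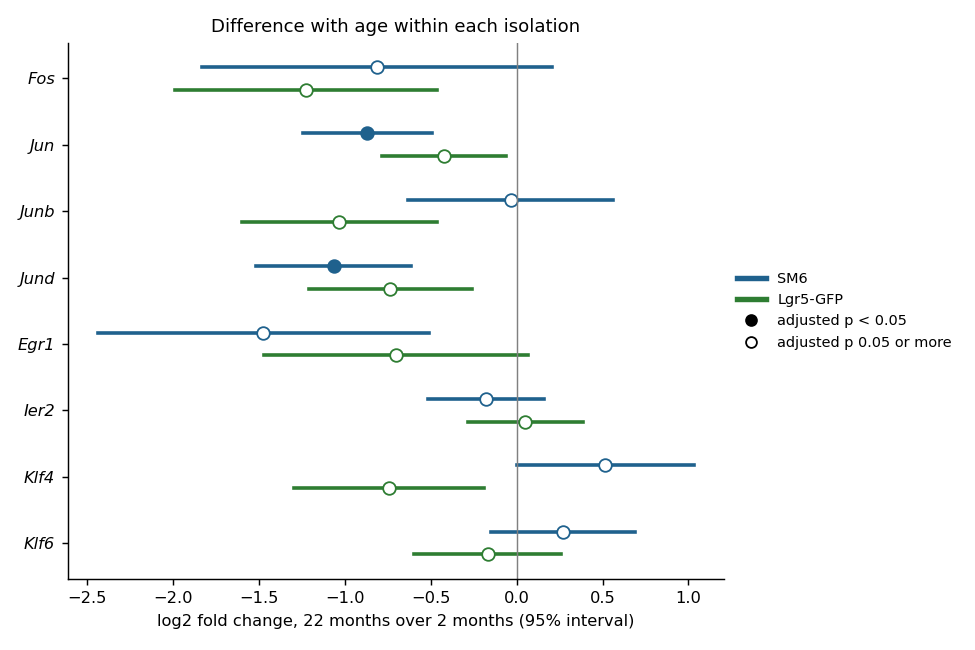
Points give the fitted log2 fold change of each member from 2 to 22 months in SM6 and in Lgr5-GFP, lines the 95% intervals, and filled points an adjusted p below 0.05; Fosb and Atf3 are left out because their counts reach the floor. Jun and Jund in SM6 are the filled points, and Klf4 lies right of 0 in SM6 (0.52) and left of 0 in Lgr5-GFP (-0.74).

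The difference between the isolations in their change with age was tested directly. No member passed this interaction test (0 of 10, with 4 at an unadjusted p under 0.05 by edgeR), against 0.658% of all tested genes, and DESeq2, limma voom and the likelihood ratio test of edgeR also called 0, with 2, 4 and 4 members under an unadjusted 0.05. By the quasi-likelihood test of edgeR the 4 were Klf4, Junb, Fosb and Atf3, of which Fosb and Atf3 had few or no counts in SM6. Klf4 came nearest, at -1.26 (SE 0.37, adjusted p = 0.166), followed by Junb at -0.996 (SE 0.40, adjusted p = 0.423). Jun differed by 0.45 (SE 0.25, adjusted p = 0.597) and Jund by 0.33 (SE 0.32, adjusted p = 0.818), with 95% intervals of -0.07 to 0.97 and -0.33 to 0.99. The call of Jun and Jund in SM6 and not in Lgr5-GFP is therefore not shown to be a difference between the isolations.

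The comparison of the isolations asks how ISCs of the 2 sources differ at the same age. Fos, Egr1 and Jun were higher in Lgr5-GFP when averaged over the ages, 3 of the 8 members that passed the filter in both isolations, against 0.352% of all tested genes (47, of which 10 higher). Fos was 4.05-fold higher (log2 2.02, SE 0.30, adjusted p = 0.00110), Egr1 2.64-fold (log2 1.40, SE 0.30, adjusted p = 0.0314) and Jun 1.61-fold (log2 0.69, SE 0.13, adjusted p = 0.00833). Fosb also had an adjusted p below the threshold (0.0169), but it entered the test only through Lgr5-GFP libraries, so it is not counted here, and no fitted fold is given because SM6 young was at 0. Fos, Egr1 and Jun were above SM6 in every Lgr5-GFP library at both ages and Jund below it, 4 of these 8 members, where 1.08% of all tested genes showed no overlap in the same direction at both ages. Jund was 1.48-fold lower in Lgr5-GFP (log2 -0.56, SE 0.16) and Klf4 likewise 1.48-fold lower (log2 -0.57, SE 0.18), and neither passed (adjusted p = 0.206 and 0.336). Junb was at 0.64 (SE 0.20, adjusted p = 0.306).

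The Egr1 call between the isolations was lost when any library was left out other than SM6 young replicate 3, Lgr5-GFP young replicate 1, Lgr5-GFP young replicate 3 or Lgr5-GFP old replicate 1, with adjusted p between 0.0511 and 0.118, and by limma voom (1.20, adjusted p = 0.193). The calls of Fos and Jun were kept in every fit that left out 1 library.

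At 2 months, Fos was 4.67-fold higher in Lgr5-GFP (log2 2.22, SE 0.39, adjusted p = 0.0127) and was the member called, 1 of 10 against 0.0898% of all tested genes (12). Junb was at 1.13 (SE 0.27, adjusted p = 0.150), Egr1 at 1.02 (SE 0.37, adjusted p = 0.503) and Jun at 0.47 (SE 0.17, adjusted p = 0.524). Of the 8 members past the filter in both isolations, libraries did not overlap for 5 at this age, where 13.7% of all tested genes showed no overlap in either direction. Fos, Jun, Junb and Egr1 were on the higher side in Lgr5-GFP and Jund on the lower. The Fos call was lost without SM6 young replicate 1 (2.23, adjusted p = 0.0850), SM6 young replicate 2 (1.93, adjusted p = 0.148), Lgr5-GFP young replicate 2 (1.98, adjusted p = 0.128) or Lgr5-GFP young replicate 3 (2.03, adjusted p = 0.0567). Junb passed with no filter (adjusted p = 0.000269) and by the likelihood ratio test of edgeR (0.027).

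At 22 months, Jun was 1.88-fold higher (log2 0.91, SE 0.18, adjusted p = 0.0130) and Klf4 2.29-fold lower in Lgr5-GFP (log2 -1.19, SE 0.27, adjusted p = 0.0320), 2 of 10 members against 0.718% of all tested genes (96, of which 90 lower). Fos was at 1.81 (SE 0.47, adjusted p = 0.0766, and 0.0572 without both libraries of highest defensin share) and Egr1 at 1.79 (SE 0.47, adjusted p = 0.0838). The isolations did not overlap for 7 of the 8 members past the filter in both, higher in Lgr5-GFP for Fos, Jun, Egr1 and Ier2 and lower for Jund, Klf4 and Klf6, where 13.5% of all tested genes showed no overlap in either direction. The Jun call was lost without SM6 old replicate 1 (0.92, adjusted p = 0.0526), SM6 old replicate 2 (0.89, adjusted p = 0.0578) or Lgr5-GFP old replicate 3 (0.81, adjusted p = 0.1), and in the fit that adjusted for the defensin share (0.83, adjusted p = 0.0954). The Klf4 call was lost without SM6 old replicate 1 (-1.02, adjusted p = 0.177), SM6 old replicate 2 (-1.20, adjusted p = 0.0830), Lgr5-GFP old replicate 1 (-1.18, adjusted p = 0.133) or Lgr5-GFP old replicate 3 (-0.99, adjusted p = 0.182), when scaled by library totals alone (-1.005, adjusted p = 0.145), and in the fit of the compared libraries alone (-1.19, adjusted p = 0.053). Fos passed without Lgr5-GFP young replicate 1 (1.81, adjusted p = 0.0205) or Lgr5-GFP old replicate 2 (2.16, adjusted p = 0.0237), and Egr1 without Lgr5-GFP young replicate 2 (1.79, adjusted p = 0.0442) or Lgr5-GFP old replicate 1 (2.11, adjusted p = 0.0425). Both also passed by DESeq2 (adjusted p = 0.016 for Fos and 0.0412 for Egr1), by the likelihood ratio test of edgeR (0.00736 and 0.0159), with library totals alone (0.0256 and 0.031) and with no filter (2.14e-05 and 0.00317), and Fos in the fit of the compared libraries alone (0.0392).

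**Figure D3:**
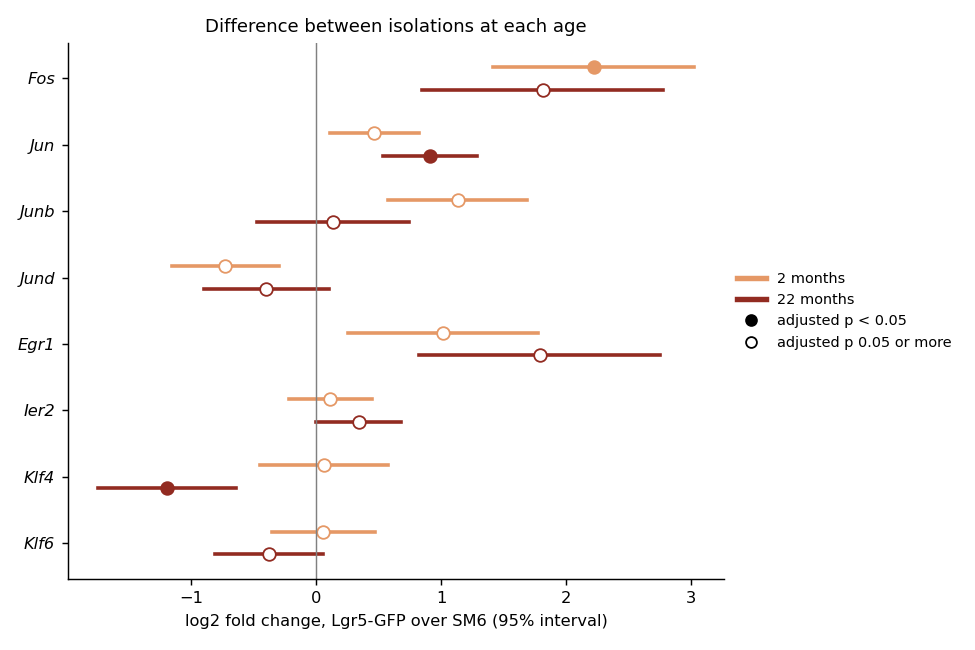
Points give the fitted log2 fold change of each member in Lgr5-GFP over SM6 at 2 and at 22 months, lines the 95% intervals, and filled points an adjusted p below 0.05; Fosb and Atf3 are left out because their counts reach the floor. Fos lies near 2 at both ages (2.22 and 1.81), Jund lies left of 0 at both, and Klf4 is left of 0 at 22 months (-1.19).

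Marker levels of other crypt cells also differed between the groups, not all in the same order. The 6 AP-1 genes together were at 235 to 316 CPM in SM6 young, 144 to 181 CPM in SM6 old, 348 to 475 CPM in Lgr5-GFP young and 225 to 303 CPM in Lgr5-GFP old. Jun was the largest single part of this sum in every library. The summed ISC markers, of which all 12 were tested, ran from 14211 to 17510 CPM in SM6 young, 8938 to 10307 CPM in SM6 old, 13829 to 15546 CPM in Lgr5-GFP young and 11789 to 13176 CPM in Lgr5-GFP old. They were lowest in SM6 old, and 3 of them fell with age in SM6 (Olfm4, Sox9 and Cdk6). By their group means, Fos, Jun, Junb, Egr1 and Ier2 were also lowest in SM6 old. Klf4 and Klf6 were highest there, Jund was lowest in Lgr5-GFP old, and Fosb and Atf3 had few counts. The 9 goblet cell markers summed to 5730 to 9172 CPM in SM6 young and 17402 to 18311 CPM in SM6 old, and 6 of them rose with age in SM6 (led by Agr2, Tff3, Muc2 and Zg16). In Lgr5-GFP they summed to 5334 to 13804 CPM at 2 months and 3179 to 5528 CPM at 22 months.

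The 10 Paneth cell markers ran from 10704 to 67514 CPM in SM6 young, 44083 to 273596 CPM in SM6 old, 43130 to 245164 CPM in Lgr5-GFP young and 18122 to 30874 CPM in Lgr5-GFP old, and all 10 passed the interaction test by edgeR (led by Ang4, Mmp7, Itln1 and Defa21), against 5 by DESeq2 and 4 by limma voom. The 12 enterocyte markers ran from 2082 to 2205 CPM in SM6 young, 2757 to 9570 CPM in SM6 old, 1933 to 3238 CPM in Lgr5-GFP young and 2210 to 12044 CPM in Lgr5-GFP old, where the other two libraries were at or below 2991 CPM. Of them, 5 rose with age in SM6 (led by Sis, Alpi, Fabp1 and Fabp2) while 3 fell in Lgr5-GFP (Apoa4, Lct and Apoa1). The medians of the goblet and Paneth cell marker sums were, like the Klf4 levels, higher with age in SM6 and lower in Lgr5-GFP. In bulk libraries, a changed share of a cell type and a changed RNA level per cell cannot be told apart, and the part of these cells in the members' levels was not tested. Of the 10 enteroendocrine markers, 5 were lower in Lgr5-GFP than in SM6 averaged over the ages (led by Chga, Sct, Chgb and Cck). Of the 8 tuft cell markers 6 were tested, and none passed in any comparison by the edgeR quasi-likelihood test (0 to 4 at an unadjusted p under 0.05), DESeq2 or limma voom (0 to 1 each), while the likelihood ratio test of edgeR called 1 for the interaction. Mitochondrial transcripts took 6.39% to 7.01% of the counts in SM6 young, 5.77% to 6.85% in SM6 old, 4.02% to 6.29% in Lgr5-GFP young and 7.37% to 9.33% in Lgr5-GFP old. The part of RNA quality in the lower Lgr5-GFP old values was not tested.

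**Figure D4:**
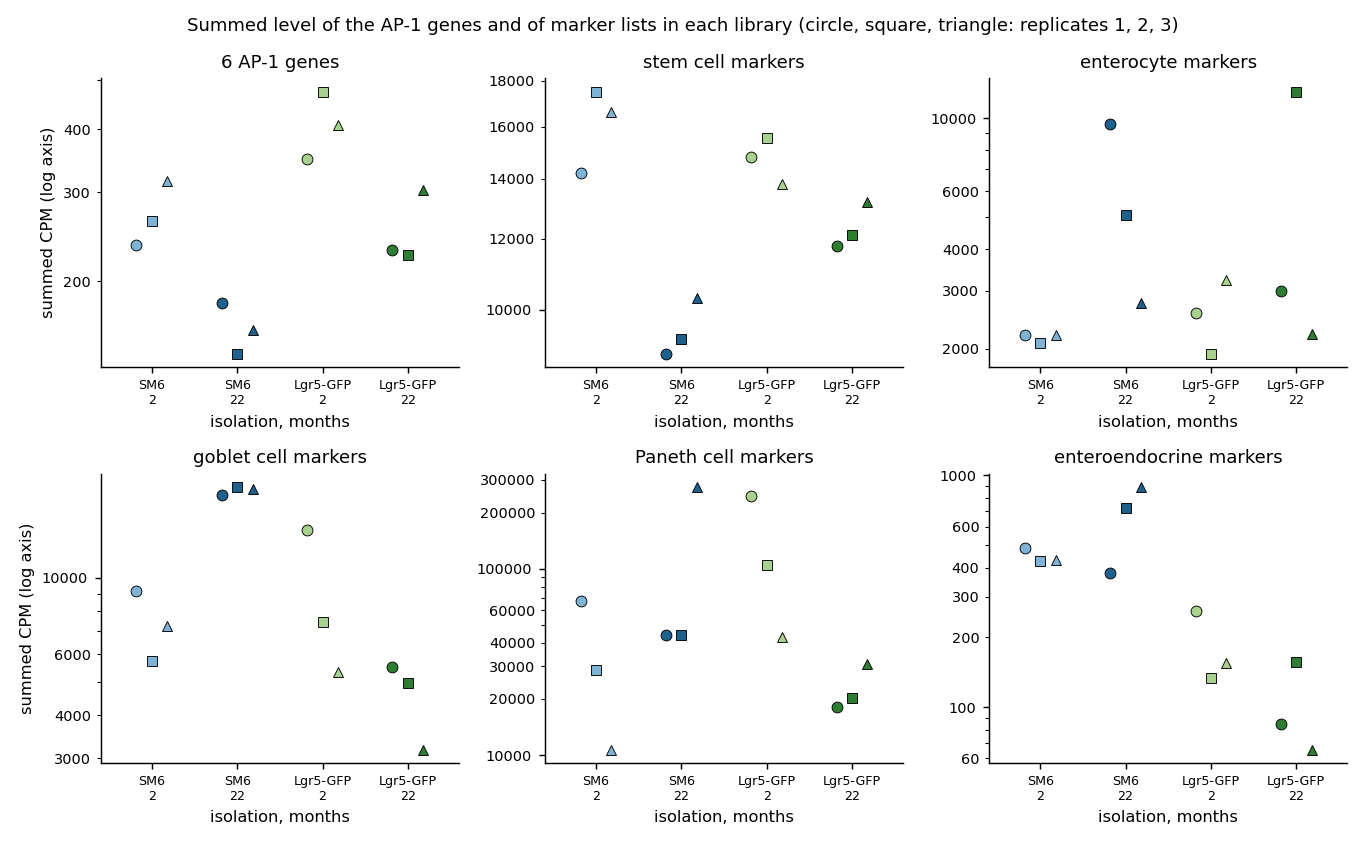
Each panel plots the summed CPM of a gene list in every library (log axis), for the 6 AP-1 genes and for markers of ISCs, enterocytes, goblet, Paneth and enteroendocrine cells. The AP-1 sum is lowest in SM6 old (144 to 181 CPM), where the goblet cell markers are highest (17402 to 18311 CPM) and the ISC markers lowest.

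Other genes of the early response were read from lists of related genes. Of the 7 tested other AP-1 subunits and dimer partners (11 listed), 0 passed in any comparison by edgeR, with 0 to 2 at an unadjusted p under 0.05, and DESeq2, limma voom and the likelihood ratio test of edgeR each called 1 with age in SM6. Fosl2, a Fos-related subunit without a transactivation domain like that of Fos, was at 57.0, 79.3 and 75.2 CPM in SM6 young and 41.3, 32.6 and 50.3 CPM in SM6 old (log2 -0.77, SE 0.21, adjusted p = 0.0536). In Lgr5-GFP it ran from 47.3 to 68.0 CPM at 2 months and from 52.9 to 56.7 CPM at 22 months (-0.08, SE 0.21). The Fos-related subunit Fosl1 was nearly absent, with at most 2 counts in a library. Among the 12 tested other immediate early transcription factors (19 listed), Klf9 fell with age in SM6 (-1.15, SE 0.29, adjusted p = 0.0333) and on average (-0.80, SE 0.20, adjusted p = 0.0315). The early nuclear receptor Nr4a1 had at most 1.24 CPM in any library and was not tested, and Myc, a growth regulator, ran from 68.5 to 144 CPM with log2 fold changes with age of 0.08 (SE 0.21) in SM6 and 0.24 (SE 0.21) in Lgr5-GFP.

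Genes that switch the early response off or decay its mRNAs were tested in 25 of 27 cases. Gadd45a, a growth arrest and stress gene, and Spry2, an inhibitor of receptor tyrosine kinase signalling, fell with age in SM6. Gadd45a was at 68.0, 99.2 and 74.4 CPM in SM6 young and 17.9, 25.1 and 24.0 CPM in SM6 old (log2 -1.85, SE 0.28, adjusted p = 0.000579). Spry2 was at 40.7, 68.2 and 107 CPM in SM6 young and 13.2, 28.5 and 21.6 CPM in SM6 old (-1.74, SE 0.36, adjusted p = 0.00810). In Lgr5-GFP, Gadd45a was at -0.78 (SE 0.27, adjusted p = 0.269) and Spry2 at -0.33 (SE 0.35, adjusted p = 0.826), and neither passed. Both were also called on the average of the isolations (-1.31, SE 0.19, and -1.04, SE 0.25, adjusted p = 0.000274 and 0.0231). No other gene of this list passed in any comparison. Dusp1, the phosphatase that inactivates the MAP kinases, was at 2.77 to 3.64 CPM in SM6 young and 7.56 to 16.1 CPM in Lgr5-GFP young, a log2 difference of 1.76 (SE 0.54, adjusted p = 0.354). Zfp36, which brings early mRNAs to decay, was at 17.3 to 18.3 CPM in SM6 young and 27.7 to 39.7 CPM in Lgr5-GFP young (0.99, SE 0.29, adjusted p = 0.341), and the antiproliferative gene Btg2 at 93.4 to 109 CPM and 106 to 140.5 CPM (0.23, SE 0.18).

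Of the 11 tested secreted and other effectors (18 listed), Pim1, a kinase gene induced by cytokine signals, fell with age in SM6 (-1.39, SE 0.32, adjusted p = 0.0185) and on average (-1.03, SE 0.22, adjusted p = 0.00961), and was at -0.67 in Lgr5-GFP (SE 0.31, adjusted p = 0.487). Ccn1 (formerly Cyr61), a matricellular protein gene driven by serum response factor and YAP, was higher in Lgr5-GFP averaged over the ages (log2 1.87, SE 0.37, adjusted p = 0.0202). It was at 2.43, 4.99 and 7.95 CPM in SM6 young, 2.34, 2.71 and 3.99 CPM in SM6 old, 18.3, 36.9 and 11.2 CPM in Lgr5-GFP young, and 8.00, 13.0 and 8.68 CPM in Lgr5-GFP old, with no overlap between the isolations at either age.

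The mRNAs of the kinases upstream of the early response gave no call by the main test, and kinase activity was not measured. Of 29 tested genes of the ERK, JNK and p38 cascades and their transcription factors (30 listed), 0 passed in any of the 7 comparisons by edgeR (1 to 5 at an unadjusted p under 0.05 in each) and 0 by DESeq2, while limma voom called 1 with age on average and the likelihood ratio test of edgeR 1 for the interaction. Their median log2 fold change was -0.11 with age in SM6, 0.08 with age in Lgr5-GFP and 0.01 between the isolations. For the 8 members with more than 3 counts in every group, the medians were -0.50, -0.72 and 0.43, against -0.01, -0.03 and -0.01 over all tested genes. Over all 10 members they were -0.11, -0.72 and 0.54, but these include fitted values of Fosb and Atf3, whose counts reach the floor. These medians are descriptions, given with no test.

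Of the 10 other KLF factors tested (11 listed), Klf13 (-0.75, SE 0.17, adjusted p = 0.0161) and Klf9, which is on both lists, fell with age in SM6, and both did so on average (Klf13 -0.47, SE 0.12, adjusted p = 0.0340). In Lgr5-GFP, Klf13 was at -0.18 (SE 0.17, adjusted p = 0.799) and Klf9 at -0.45 (SE 0.29, adjusted p = 0.658), and neither passed. Klf5, the abundant KLF of proliferating crypt cells, was at 618.3 to 805 CPM in SM6 young and 454.5 to 543 CPM in SM6 old (-0.49, SE 0.16, adjusted p = 0.143). In Lgr5-GFP it was at 516 to 679 CPM at 2 months and 484 to 538 CPM at 22 months (-0.18, SE 0.16).

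Heat shock genes, which answer to protein damage and also to tissue dissociation, were examined beside the members, and 10 of 11 were tested. Hsph1, a chaperone of the large heat shock family, was at 255, 266 and 295 CPM in Lgr5-GFP young and 103, 121 and 101 CPM in Lgr5-GFP old (log2 -1.32, SE 0.18, adjusted p = 0.000598), against 98.3 to 131 CPM in SM6 young and 110 to 168 CPM in SM6 old. Dnaja1, a co-chaperone, was at 507, 642 and 509 CPM in Lgr5-GFP young and 304, 276 and 302 CPM in Lgr5-GFP old (-0.91, SE 0.16, adjusted p = 0.00872). Averaged over the isolations, Hsph1 fell by 0.58 (SE 0.13, adjusted p = 0.0107). Both were higher in Lgr5-GFP than in SM6 at 2 months (1.21, SE 0.18, and 0.93, SE 0.16, adjusted p = 0.00205 and 0.0127). The inducible chaperones Hspa1a and Hspa1b had 28 and 19 counts in Lgr5-GFP young, 1 and 2 in SM6 young, 1 and 5 in SM6 old, and 0 and 2 in Lgr5-GFP old. Hspa1a passed the filter only through Lgr5-GFP young libraries, so these counts are a description. They are not scaled for depth, and Lgr5-GFP young was the deepest group. Per group, 3 counts were 0.451 CPM there, 0.620 CPM in SM6 young, 0.748 CPM in SM6 old and 0.796 CPM in Lgr5-GFP old. Fosb and Hspa1a both had their highest summed count in Lgr5-GFP young, and the part of the dissociation step in these levels was not tested.

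**Figure D5:**
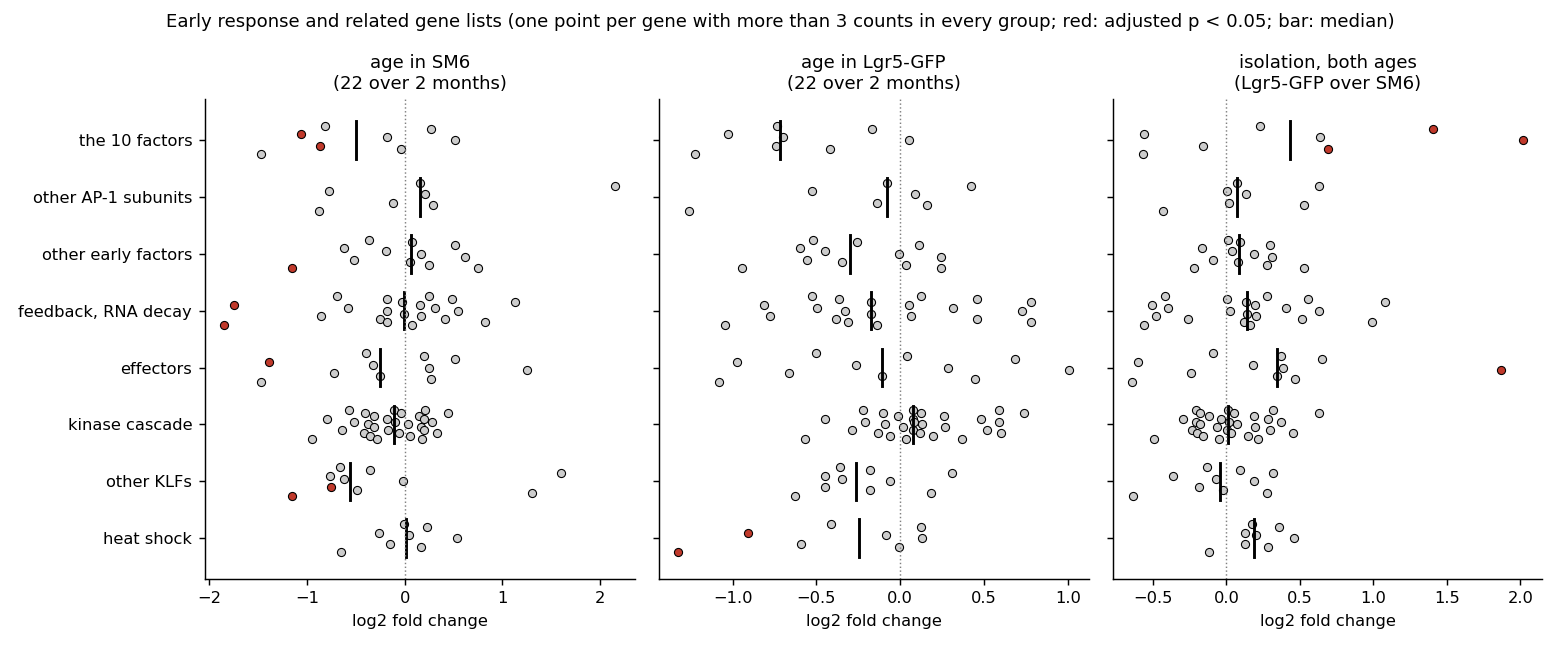
Each point is the log2 fold change of 1 gene with more than 3 counts in every group, by list, for age in SM6, age in Lgr5-GFP and the isolation averaged over the ages; red points have an adjusted p below 0.05 and vertical bars are list medians. The 8 members shown have medians of -0.50, -0.72 and 0.43, and the kinase cascade genes lie around 0 with no red point.

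The genes whose pattern over the 12 libraries was most like that of 4 members were sought among 8319 other genes with a mean of at least 10 CPM, by the root mean square (RMS) difference of centred log2(CPM + 1). For Fos, whose own RMS deviation from its mean was 1.18, these were Edn1 (0.68), Ccn1 (0.74) and Kif12 (0.82). For Egr1 (own deviation 0.95) they were Ccn1 (0.57), Pin4 (0.57) and Edn1 (0.58). Edn1 and Ccn1 were thus named for both. Edn1, the gene of the peptide endothelin, was at 10.3 ± 4.22 CPM in SM6 young, 5.72 ± 0.34 CPM in SM6 old, 19.9 ± 8.51 CPM in Lgr5-GFP young and 11.3 ± 2.21 CPM in Lgr5-GFP old (SD, n = 3). For Jun (own deviation 0.51) they were Tuft1 (0.23), Mtap (0.27) and Gm20604 (0.27), and for Klf6 (own deviation 0.21) Ostc (0.09), Dync1i2 (0.12) and Adipor2 (0.12). All genes were read in the same libraries, which differ in depth and in cell marker levels, so this likeness is a description.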

How the data were processed

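ISCs were profiled by 3′ RNA-seq in 12 libraries. Per the labels and the study's methods, the authors aligned reads with STAR 2.4.2a to GRCm38 (mm10) and counted exonic reads per GENCODE gene with featureCounts. The deposited values are raw counts, not normalised. Whether molecular identifiers were collapsed, and the strand setting, are not given in the sources used here.

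Genes with more than 5 reads and 1 CPM in at least 1 library (13368) were tested with edgeR 4.0.16 (R 4.3.3; quasi-likelihood, two-sided, TMM scaling, 1 mean per group, all 12 libraries), with Benjamini-Hochberg adjustment over all tested genes and a threshold of 0.05. The study's methods name edgeR's likelihood ratio test for young against old ISCs and limma voom for other libraries. The likelihood ratio test was added as an alternative after the data were seen. SEs were taken from the fold change and its F statistic. Counting intervals (95%, exact) and floors (3 counts) cover counting error only. CPM used scaled totals. Depth was 970472 to 3815425 counts, so levels of a few CPM rest on a few counts. Fosb and Atf3 passed the filter only through Lgr5-GFP libraries and were left out of counts of non-overlapping members.

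Alternatives were other scalings, filters, DESeq2 1.42.0, limma 3.58.1 voom, the replicate number as a block, the defensin share as a covariate, the compared libraries alone, and libraries left out. Samples sharing a number did not deviate together, so numbers were not used as pairs. The scripts were tested on simulated data. All 10 members are named. From other lists, called genes (at most 4 per list and comparison) and Fosl2, Dusp1, Zfp36, Nr4a1, Btg2, Myc, Hspa1a, Hspa1b and Klf5 are named, and cell type markers are given mainly as counts and sums. Fosl1 was named after its values were seen. The members and lists were chosen with earlier results of these data known. Promoter windows and gene positions came from RefSeq and GENCODE vM21 tables of GRCm38. No value column was left out.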

Additional observations from a re-analysis of the deposited data

Results flagged for a closer look

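The members and the lists of early response, KLF and heat shock genes (112 tested genes, cell type markers not included) were screened for changes with age that differed between the isolations. Of the 2 heat shock genes whose change with age differed between the isolations by the interaction test of edgeR, Hsph1 gave -1.49 (adjusted p = 0.00554) and Dnaja1 gave -1.44 (adjusted p = 0.00344), as log2 fold change in Lgr5-GFP minus that in SM6. Both fell in Lgr5-GFP, lower in 3 of 3 old libraries. In SM6, Hsph1 was at 0.16 (SE 0.18, adjusted p = 0.786) and Dnaja1 at 0.53 (SE 0.16, adjusted p = 0.0858), with Dnaja1 at 245, 303 and 324 CPM in young and 417, 407 and 437 CPM in old libraries.

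Of these 112 genes, 4 had every old library on one side of the young ones in SM6 and on the other side in Lgr5-GFP (Dnaja1, Klf4, Spred1 and Erbb3), with Atf3 left out for its low counts. Such opposite, non-overlapping levels were found for 0.965% of all tested genes (129 of 13368), with or without a called interaction. Other than Dnaja1, these genes did not pass the interaction test. Klf4 gave -1.26 (adjusted p = 0.166), Spred1, an inhibitor of the ERK pathway, gave 1.31 (adjusted p = 0.345), and Erbb3, a receptor tyrosine kinase gene, gave 1.12 (adjusted p = 0.0938). Spred1 was at 17.0, 15.0 and 13.0 CPM in SM6 young, 12.5, 8.14 and 9.59 CPM in SM6 old, 10.1, 11.3 and 10.8 CPM in Lgr5-GFP young, and 23.3, 15.4 and 13.5 CPM in Lgr5-GFP old. Atf3 had a summed count of 11 in Lgr5-GFP young against 1 to 4 in the other groups, too few for a fold change, and single counts decide on which side its libraries lie. No cause was tested for any of these.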

How the results depend on the processing

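Genes called at an adjusted p of 0.05 numbered 355 (age averaged), 323 (age in SM6), 63 (age in Lgr5-GFP), 88 (interaction), 47 (isolation averaged), 12 (2 months) and 96 (22 months). Without a filter they numbered 590, 603, 274, 224, 131, 125 and 228. Library totals alone gave 97 for age in Lgr5-GFP and 25 at 2 months, the defensin covariate 28 for age in Lgr5-GFP and 34 for the interaction, and limma voom 28 for isolation averaged and 22 at 2 months. At 2 months DESeq2 gave 31 and leaving out both libraries of highest defensin share 20. Leaving out 1 library gave 228 to 471, 145 to 404, 26 to 113, 41 to 98, 26 to 61, 6 to 39 and 40 to 120, in the order above. The likelihood ratio test of edgeR, added after the data were seen, gave 501, 527, 173, 158, 113, 41 and 203 genes and 4, 3, 1, 0, 4, 3 and 4 members. The cause of these shifts was not tested.

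Of the members, 3, 2, 0, 0, 4, 1 and 2 were called, and leaving out 1 library gave 2 to 4, 1 to 2, 0 to 1, 0 to 0, 2 to 4, 0 to 2 and 0 to 3. The 4 between the isolations include Fosb, which passed the filter only through Lgr5-GFP libraries, and other counts between the isolations can include it too. For age in Lgr5-GFP, 2 were called with no filter and 1 without both libraries of highest defensin share. At 2 months, 2 were called with library totals, 1 CPM in 3 libraries, DESeq2, limma voom or the compared libraries alone, and 3 with no filter. The 2 were Fos and Fosb each time, and Junb was the member added with no filter. At 22 months, 4 were called with no filter or DESeq2 and 1 with the defensin covariate. The replicate block gave 360, 331, 57, 104, 46, 11 and 97 genes and 3, 2, 0, 0, 4, 1 and 2 members. Correlations of same-numbered libraries ran from -0.07 to 0.05 over 18 pairs, 0 of them above 0.1, so the labels' numbers were not read as pairing.

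Only uncalled values changed sign. Junb with age in SM6 was 0.04 (0.044) with the defensin covariate and 0.01 (0.0089) without both libraries of highest defensin share, Klf6 with age in Lgr5-GFP was 0.024 with library totals, and at 2 months library totals gave Ier2 -0.034, Klf4 -0.067 and Klf6 -0.077. Leaving out 1 library gave ranges of -0.026 to 0.11 (Klf6, age averaged), -0.30 to 0.18 (Junb, age in SM6), -0.038 to 0.14 (Ier2, age in Lgr5-GFP), -0.13 to 0.15 (Klf4, 2 months), -0.036 to 0.17 (Klf6, 2 months) and -0.11 to 0.43 (Junb, 22 months). Library totals moved the median of all genes to -0.16 (age in SM6), 0.16 (age in Lgr5-GFP), 0.35 (interaction), -0.15 (2 months) and 0.21 (22 months), and fold changes there are relative to these shifts. With them, 85.0%, 39.2%, 54.0%, 68.0% and 75.7% of the calls were lower, where TMM gave 237 of 323, 38 of 63, 81 of 88, 5 of 12 and 90 of 96. With 3 libraries a group and few counts, differences in Fosb and Atf3 are limited by depth.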
